A study of Arabidopsis thaliana with 9 samples.

Results

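In roots of Arabidopsis thaliana taken 9 days into growth, 66 of 24140 listed genes had a higher transcript level than wild type (WT) in each of a pair of lines that carry a large excess of ERF13 transcript. The genes were chosen by their values: in each line the mean FPKM (sequenced fragments scaled to gene length and to library size) was at least 1 and at least 2 times the WT mean, and every library of both lines lay above every WT library. On these criteria 72 genes passed, 0.298% of those listed, and 6 of them, ERF13 among them, were left out. Taken a line at a time, the same criteria were met by 492 genes in 35S:ERF13:MYC (2.04%) and by 952 genes in erf13-3 (3.94%). Because each line's level relative to WT selected the genes, those levels are given as a description with no test. What remained to be tested was the difference between the lines themselves. Where the groups are said below to be separate, their separation from WT follows from the choice. Only the separation of the lines from each other does not.

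The seedlings grew on half-strength MS medium, a standard salt medium for plants, and there were 3 libraries for each of 3 genotypes. WT is the labelled wild type. The line 35S:ERF13:MYC expresses ERF13 with a MYC epitope tag from the 35S promoter of cauliflower mosaic virus, which is active in most plant tissues. The third group has conflicting labels. Its titles read erf13-3, its genotype entry describes an ERF13 line with the SRDX domain, and the series text spells the name erf3-3. The authors' deposited comparison of this group with WT also names it by SRDX in its column headers. SRDX is a short peptide motif, and a plant activator joined to it usually acts as a repressor of its targets. The promoter that drives it is not given in the sources used here. The name erf13-3 is used below for the libraries labelled so and does not mean that ERF13 was lost. ERF13 ran from 0.96 to 1.25 FPKM in WT, from 773 to 905 FPKM in 35S:ERF13:MYC and from 2595 to 3043 FPKM in erf13-3, and a count per gene does not separate the native transcript from one made by a transgene. The labels do not state how the plants were pooled for each library. A p-value here therefore reflects only how much these libraries vary, and some of that variation can be technical.

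ERF13 belongs to the ethylene response factors, plant transcription factors that are known for binding GCC-box elements in the promoters of defence and stress genes. Several of the genes described here belong to families known from stress and defence. W boxes, the elements bound by WRKY factors, mark many genes that respond quickly to wounding and pathogens. Calcium channels and calcium sensors act early in the same responses. Glucosinolates are sulfur-rich defence compounds of the cabbage family.

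A library held 12147128 to 12324144 expected counts over 21952 to 22240 listed genes. The summed level of 7 root marker genes ran from 11189 to 13244 FPKM in WT, from 10845 to 12338 in 35S:ERF13:MYC and from 7963 to 8528 in erf13-3. The summed level of 12 green tissue genes, markers of shoot material, ran from 425 to 472 FPKM in WT, from 186 to 265 in 35S:ERF13:MYC and from 839 to 965 in erf13-3. None of these 19 markers was at 0 and none was among the 66 genes. Such sums are weighted towards their most abundant genes, and the markers are not shown one by one. The green tissue sum lay below WT in 35S:ERF13:MYC and above it in erf13-3, and its part in the values below was not tested. In RNA from whole roots, fewer cells of a type and less RNA per cell cannot be told apart.

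Of 6 promoter motifs searched, the W box had the largest gap between its share in these genes and its share in all genes, so promoters that carry it are shown before the values. The 250 bases before each annotated gene start were read from the RefSeq TAIR10.1 genome and searched on both strands. The W box was searched as TTGACC or TTGACT. It stood in 36 of 66 promoters (54.5%), against 28.6% of the 23943 promoters of listed protein-coding genes. The share was 39.0% among the 420 genes that met the criteria in 35S:ERF13:MYC but not in both lines, and 36.5% among the 879 such genes of erf13-3 that have a promoter window. At least 2 W boxes stood in 12 promoters (18.2%), against 6.11% of all. Median GC content differed little, at 30.4% in the 66 promoters and 31.2% in all. No test was made of these shares, and a match is a run of letters rather than a bound site. Below are 6 of the 12 promoters with 2 or more W boxes, from genes with large differences from WT or with a neighbour in the set, and that of WOX2, which held the only GCC box. Each is given on the gene's own strand, 5′ to 3′, ending at the base before the gene start, with the motifs in capitals. A W box on the other strand reads GGTCAA or AGTCAA.
AT2G24600 (chr2:10454594-10454843, minus strand): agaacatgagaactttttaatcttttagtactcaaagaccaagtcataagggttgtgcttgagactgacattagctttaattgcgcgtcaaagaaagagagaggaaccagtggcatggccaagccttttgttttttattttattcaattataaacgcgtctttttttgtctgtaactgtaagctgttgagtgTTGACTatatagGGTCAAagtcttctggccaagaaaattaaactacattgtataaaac
AT3G27950 (chr3:10377707-10377956, plus strand): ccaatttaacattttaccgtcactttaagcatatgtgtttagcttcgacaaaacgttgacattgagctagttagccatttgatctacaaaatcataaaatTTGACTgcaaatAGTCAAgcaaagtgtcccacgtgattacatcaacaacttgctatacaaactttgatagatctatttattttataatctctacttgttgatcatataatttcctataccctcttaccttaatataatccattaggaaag
AT1G78460 (chr1:29519324-29519573, minus strand): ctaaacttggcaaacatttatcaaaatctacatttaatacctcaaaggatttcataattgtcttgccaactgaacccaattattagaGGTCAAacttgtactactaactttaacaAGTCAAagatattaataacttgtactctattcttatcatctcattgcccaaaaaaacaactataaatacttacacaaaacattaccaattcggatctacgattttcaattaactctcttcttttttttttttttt
AT5G28610 (chr5:10610522-10610771, plus strand): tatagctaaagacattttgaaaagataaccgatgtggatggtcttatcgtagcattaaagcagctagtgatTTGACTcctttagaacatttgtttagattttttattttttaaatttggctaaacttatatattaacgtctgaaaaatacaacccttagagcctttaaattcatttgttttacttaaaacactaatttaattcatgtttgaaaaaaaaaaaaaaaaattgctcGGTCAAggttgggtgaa
AT5G28630 (chr5:10636362-10636611, plus strand): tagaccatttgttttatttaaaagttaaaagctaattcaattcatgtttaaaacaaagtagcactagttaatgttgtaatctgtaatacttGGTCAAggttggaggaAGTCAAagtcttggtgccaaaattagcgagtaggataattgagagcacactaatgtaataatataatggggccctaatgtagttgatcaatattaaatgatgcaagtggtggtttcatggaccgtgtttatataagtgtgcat
CYP707A3 (chr5:18371022-18371271, minus strand): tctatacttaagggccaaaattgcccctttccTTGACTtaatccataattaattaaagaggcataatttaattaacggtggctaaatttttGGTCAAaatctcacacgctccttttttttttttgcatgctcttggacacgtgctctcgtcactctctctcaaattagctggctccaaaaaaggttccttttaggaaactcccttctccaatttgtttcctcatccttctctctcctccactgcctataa
WOX2 (chr5:23935051-23935300, minus strand): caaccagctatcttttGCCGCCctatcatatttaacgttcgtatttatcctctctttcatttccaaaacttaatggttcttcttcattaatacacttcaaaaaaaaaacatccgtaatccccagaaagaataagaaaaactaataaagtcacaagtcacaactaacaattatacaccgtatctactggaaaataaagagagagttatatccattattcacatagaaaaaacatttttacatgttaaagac

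Pairs of W boxes stood close together in several of these windows. In AT2G24600 the motifs began 58 and 46 bases before the gene start, on opposite strands. In AT3G27950 they began 150 and 138 bases before it, also on opposite strands and with the same spacing. The neighbours AT5G28610 and AT5G28630 each carried a pair, far apart in AT5G28610, at 179 and 17 bases, and close in AT5G28630, at 159 and 143 bases. The first letters after GGTCAA are the same in both windows, so these pairs may not be independent cases. Over all 66 promoters there were 49 W boxes, and 24 of them began within 100 bases of the gene start. The windows of 11 of the 66 genes overlap another annotated gene.

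The GCC box, searched as GCCGCC, stood in 1 of 66 promoters (1.52%), against 1.92% of all promoters. In the genes that met the criteria in 35S:ERF13:MYC but not in both lines the share was 4.29%, and in those of erf13-3 it was 0.796%. The only case, in WOX2, began 234 bases before the gene start. The DRE core CCGAC was found in 12.1% of the 66 promoters and in 12.4% of all. The G box CACGTG stood in 12.1% against 6.99%, and the TGACG element in 13.6% against 19.0%. The auxin response element TGTCTC stood in 7.58% against 11.0%. Letters missing from this window say nothing of what lies outside it.

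**Figure D1:**
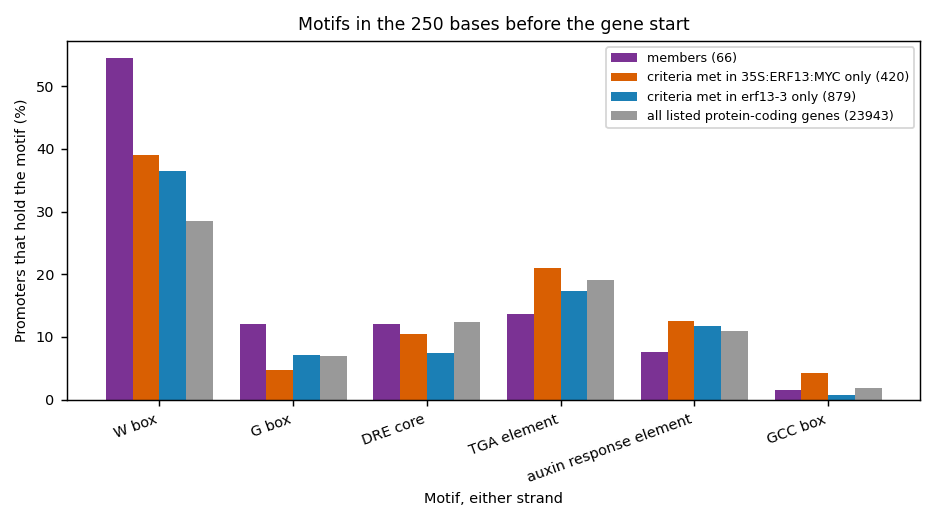
Share of promoters (percent, 250 bases before the gene start) that hold each of 6 motifs, for the 66 genes, all listed protein-coding genes, and the genes that met the criteria in a single line. The W box bar of the 66 genes, at 54.5%, is the tallest, and their GCC box bar, at 1.52%, stands for 1 promoter.

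Most of the 66 genes were expressed at a low level in WT. The median of their WT means was 1.71 FPKM, with a range from 0 to 28.3, while the median over 22990 genes with a WT value was 7.56 FPKM. In 35S:ERF13:MYC the median was 7.78 FPKM (range 1.02 to 64.6), and in erf13-3 it was 5.56 FPKM (range 1.10 to 68.9). The criterion of a ratio to WT favours genes that are low there, so this is part of the choice and not a finding.

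The median ratio to WT was 3.01 in 35S:ERF13:MYC and 2.71 in erf13-3, over the 65 genes with a WT value. Ratios of at least 5 were reached by 18 genes in 35S:ERF13:MYC and by 10 in erf13-3, and ratios of at least 10 by 7 and by 3. The spread between libraries, as the median coefficient of variation, was 22.3% in WT, 13.9% in 35S:ERF13:MYC and 13.6% in erf13-3. The authors' deposited tables of each line against WT list 65 of the 66 genes for 35S:ERF13:MYC and all 66 for erf13-3. In all they list 1305 and 1656 of the 24140 genes. They hold mean FPKM of these same groups and log2 ratios to WT. The overlap therefore follows from the choice of genes and is no separate support.

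**Figure D2:**
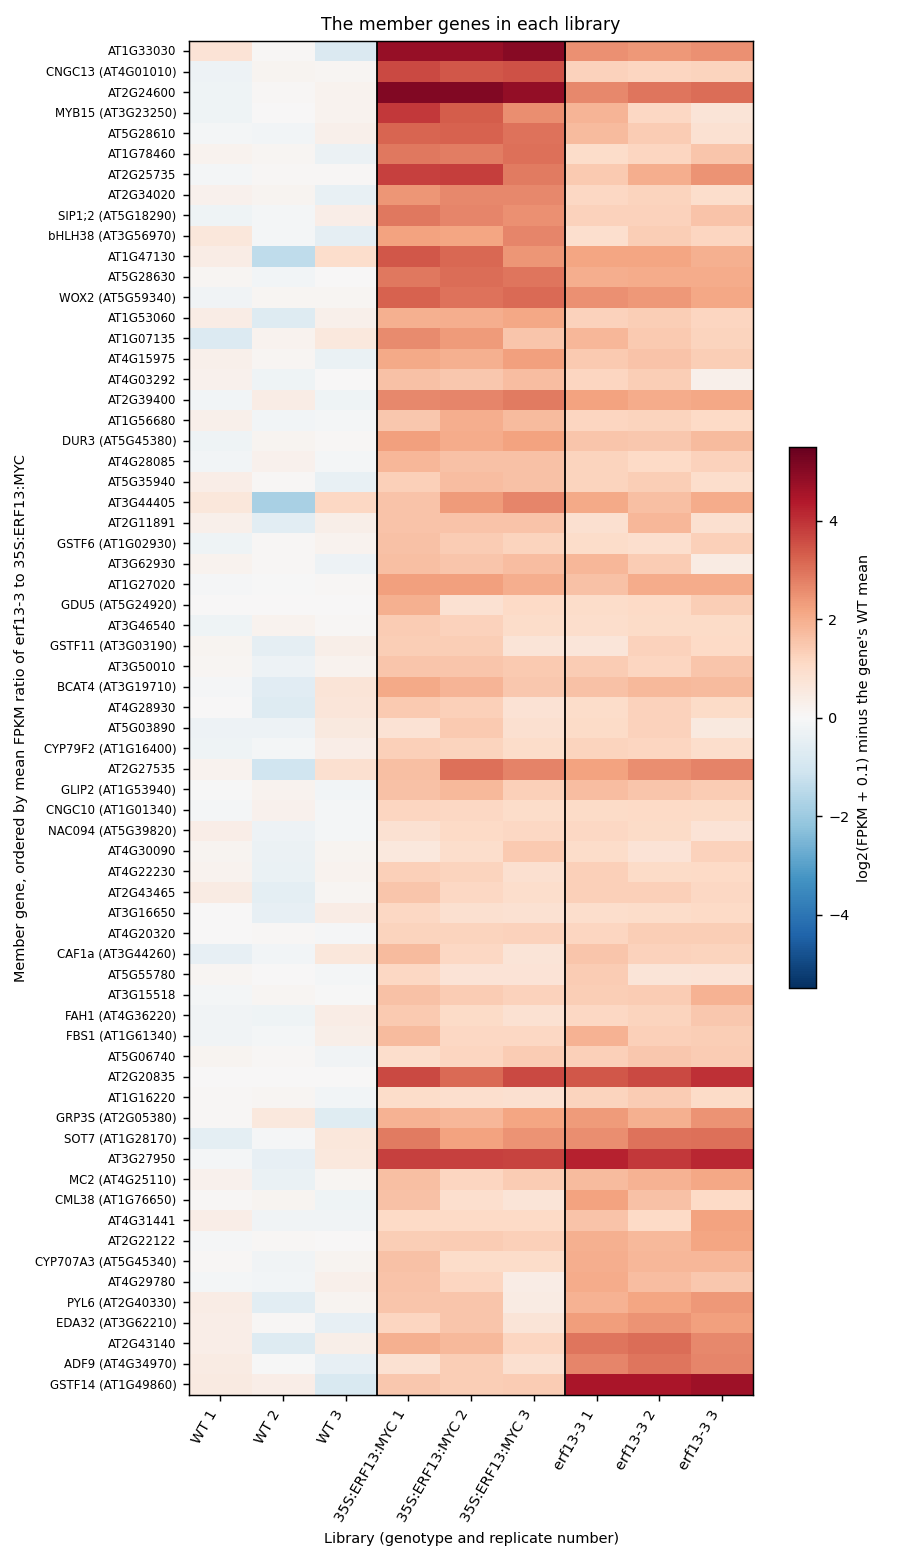
Level of each of the 66 genes in each of the 9 libraries, as log2(FPKM + 0.1) minus the gene's WT mean, with genes as rows and libraries as columns. All libraries of both lines lie on the higher side of every WT library, as the selection requires, and the sizes differ between genes and between the lines.

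The criteria cut through a run of genes with nearly equal ratios. Just inside, the smaller of a gene's 2 ratios was 2.00 for AT3G16650, 2.01 for AT1G16220, 2.02 for AT5G03890 and 2.03 for AT5G55780. Just outside it was 1.998 for AT2G38870, 1.997 for AT1G80280, 1.996 for bHLH39 and 1.986 for AT1G21326. AT3G16650 lay exactly on the limit. With TMM-scaled count rates (CPM) in place of FPKM, 47 genes passed, and all 47 were among the 66. Without WT replicate 3, 102 genes passed, of which 60 were among the 66. Without WT replicate 1 the number was 98, again with 60 shared.

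Transcription factors made up 5 of the 66 genes, by the annotation's descriptions. MYB15, an R2R3 MYB factor known for roles in cold responses and in the lignin that plants lay down during immunity, had 1.09, 1.32 and 1.48 FPKM in the WT libraries, 20.3, 13.8 and 8.03 in 35S:ERF13:MYC and 4.9, 2.93 and 2.14 in erf13-3. Every library of 35S:ERF13:MYC was higher than every library of erf13-3, and replicate 1 of 35S:ERF13:MYC was the highest of all. The mean was 10.8 times WT in 35S:ERF13:MYC and 2.56 times in erf13-3. Between the lines the log2 difference, erf13-3 minus 35S:ERF13:MYC, was -2.11 (SE 0.33, adjusted p = 2.8e-04) by edgeR's quasi-likelihood test with Benjamini-Hochberg adjustment over 19714 genes, as for all adjusted p-values below.

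WOX2, a homeobox factor known for patterning the early embryo, was close to absent from WT roots. It had 0.19, 0.26 and 0.26 FPKM in the WT libraries, 3.08, 2.59 and 2.83 in 35S:ERF13:MYC and 1.81, 1.67 and 1.36 in erf13-3. The 3 groups did not overlap, and the difference between the lines was -0.84 (SE 0.19, adjusted p = 0.00402). bHLH38 encodes a helix-loop-helix factor that pairs with FIT to switch on iron uptake genes in iron-deficient roots. Its values were 1.59, 0.91 and 0.68 FPKM in the WT libraries, 4.94, 4.92 and 6.93 in 35S:ERF13:MYC and 1.99, 2.67 and 2.38 in erf13-3, again with no overlap between the groups. The log2 difference between the lines was -1.27 (SE 0.23, adjusted p = 9.6e-04). Its gene overlaps AT3G56960 on the other strand and it has close relatives such as bHLH39, so its count is uncertain where reads could be shared.

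AT2G43140, another helix-loop-helix gene, which overlaps AT2G09420 on the other strand, had the opposite order of the lines. It had 1.05, 0.45 and 1.0 FPKM in the WT libraries, 3.3, 2.98 and 1.89 in 35S:ERF13:MYC and 6.72, 7.39 and 5.45 in erf13-3. All erf13-3 libraries lay above all 35S:ERF13:MYC libraries, a difference of 1.27 (SE 0.22, adjusted p = 5.9e-04). NAC094, a NAC domain factor, had 0.75, 0.44 and 0.50 FPKM in the WT libraries, 1.07, 1.27 and 1.32 in 35S:ERF13:MYC and 1.33, 1.26 and 1.01 in erf13-3. The lines overlapped, and the difference of -0.05 (SE 0.24, adjusted p = 0.905) did not pass the threshold of 0.05.

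The largest ratios to WT in 35S:ERF13:MYC belonged to genes with hardly any transcript in WT. AT2G24600 (chromosome 2, 10452034 to 10454593), an ankyrin repeat protein gene, had 0.24, 0.32 and 0.37 FPKM in the WT libraries, 13.6, 13.9 and 11.6 in 35S:ERF13:MYC and 2.42, 3.05 and 3.3 in erf13-3. Its libraries formed 3 separate groups, with means of 42 and 9.43 times WT in 35S:ERF13:MYC and erf13-3. Between the lines it differed by -2.23 (SE 0.15, adjusted p = 3.5e-07). AT1G33030 (chromosome 1, 11964776 to 11966320), an O-methyltransferase family gene that overlaps AT1G33020 on the other strand, had 0.38, 0.19 and 0.060 FPKM in the WT libraries, 7.71, 7.58 and 8.82 in 35S:ERF13:MYC and 1.49, 1.39 and 1.49 in erf13-3. It too separated into 3 groups, with ratios of 38.3 and 6.94, and its difference between the lines, -2.49 (SE 0.20, adjusted p = 1.3e-06), was the most negative of the 61 genes with counts enough for this test.

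AT3G27950, a gene of the GDSL lipase family, had large ratios to WT in both lines. It had 0.18, 0.12 and 0.36 FPKM in the WT libraries, 3.98, 4.08 and 3.86 in 35S:ERF13:MYC and 5.59, 4.47 and 5.29 in erf13-3. The mean was 18.1 times WT in 35S:ERF13:MYC and 23.3 times in erf13-3. The erf13-3 libraries lay above those of 35S:ERF13:MYC, but the difference of 0.34 (SE 0.17, adjusted p = 0.146) did not pass. GLIP2, a secreted lipase of the same family known for antimicrobial activity, had means of 1.74 ± 0.227 FPKM in WT, 5.41 ± 0.919 in 35S:ERF13:MYC and 5.21 ± 0.593 in erf13-3 (SD, n = 3). The lines overlapped for GLIP2.

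AT2G25735, annotated as a hypothetical protein, had 0.52, 0.58 and 0.58 FPKM in the WT libraries, 8.83, 9.05 and 4.68 in 35S:ERF13:MYC and 1.7, 2.54 and 3.54 in erf13-3. Replicate 3 of 35S:ERF13:MYC was the lowest of that group, yet it lay above all erf13-3 libraries. The difference between the lines was -1.55 (SE 0.29, adjusted p = 0.00113). AT1G78460, a gene of the SOUL heme-binding family, had 2.42, 2.27 and 1.64 FPKM in the WT libraries, 16.3, 15.5 and 17.8 in 35S:ERF13:MYC and 4.27, 4.8 and 6.1 in erf13-3, and differed by -1.73 (SE 0.16, adjusted p = 3.6e-06). Its erf13-3 libraries lay between the WT libraries and those of 35S:ERF13:MYC.

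Counts were scarcest in WT for a pair of genes. AT2G20835, a hypothetical protein gene, had no count in any WT library, and against a floor of 3 counts per library it was at least 1.78-fold higher in 35S:ERF13:MYC and at least 2.11-fold higher in erf13-3. AT2G27535, annotated in the ribosomal protein L10A family, had 3 counts in the WT libraries together. The ratio of summed counts was 8.0 in 35S:ERF13:MYC (exact 95% interval 2.43 to 41.5) and 7.67 in erf13-3 (2.32 to 39.9). Such intervals and floors cover counting error only.

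**Figure D3:**
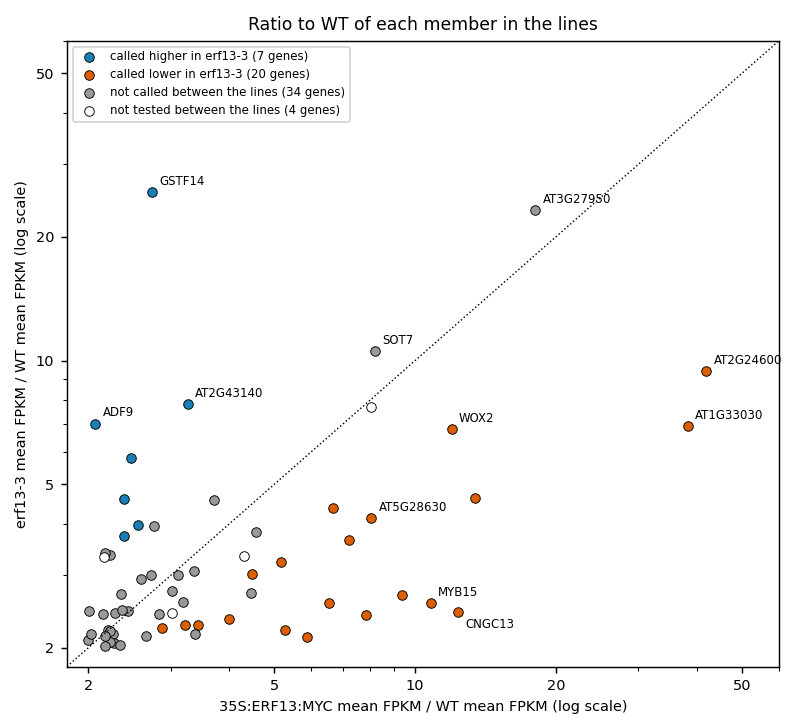
Mean FPKM of each gene as a ratio to WT in 35S:ERF13:MYC (x axis, log scale) against the same in erf13-3 (y axis, log scale), 1 point per gene with a WT value. Colour gives the result of the test between the lines and the dotted line marks equal ratios; AT2G24600 lies far to the right at 42.0 while GSTF14 lies at the top at 25.7.

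CNGC13 (chromosome 4, 434217 to 437605) encodes a cyclic nucleotide-gated channel, a class of cation channels with roles in calcium signalling. It had 0.75, 1.06 and 1.03 FPKM in the WT libraries, 12.6, 10.9 and 11.6 in 35S:ERF13:MYC and 2.41, 2.25 and 2.29 in erf13-3. The groups did not overlap and the erf13-3 libraries were much nearer to WT than to 35S:ERF13:MYC. The difference between the lines was -2.36 (SE 0.13, adjusted p = 6.3e-08), the smallest p-value of those 61 genes. CNGC10, a channel of the same family, had 3.67, 4.6 and 3.61 FPKM in the WT libraries, 9.18, 8.76 and 8.04 in 35S:ERF13:MYC and 8.37, 8.64 and 8.27 in erf13-3. Here the lines overlapped and the difference was -0.09 (SE 0.11, adjusted p = 0.534).

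AT2G34020, a calcium-binding EF-hand gene, was among the more abundant genes of the set. It had 7.02, 6.5 and 4.42 FPKM in the WT libraries, 31.6, 37 and 36.7 in 35S:ERF13:MYC and 13, 13.7 and 11.5 in erf13-3. The groups did not overlap, and the log2 difference between the lines was -1.49 (SE 0.12, adjusted p = 1.2e-06). CML38, a calmodulin-like calcium sensor known from wounding and low oxygen, had 2.34, 2.46 and 1.88 FPKM in the WT libraries, 6.99, 4.25 and 3.65 in 35S:ERF13:MYC and 10.7, 6.93 and 4.86 in erf13-3. Replicate 1 was the highest library of each line, the lines overlapped, and the difference of 0.53 (SE 0.28, adjusted p = 0.16) did not pass. Without 35S:ERF13:MYC replicate 1 the adjusted p for CML38 was 0.0357, within a range of 0.0357 to 0.587 over the alternative fits.

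Among other transport genes, SIP1;2, an intracellular aquaporin of the endoplasmic reticulum, had 3.94, 4.41 and 6.08 FPKM in the WT libraries, 35.6, 31.4 and 27.5 in 35S:ERF13:MYC and 11.6, 11.4 and 14.1 in erf13-3. Its 3 groups were separate, with -1.38 (SE 0.17, adjusted p = 3.7e-05) between the lines. Other annotated genes overlap SIP1;2 on the opposite strand. DUR3, the high-affinity symporter that takes up urea with protons, had 10.6, 14 and 13 FPKM in the WT libraries, 59.1, 52.2 and 57.4 in 35S:ERF13:MYC and 36.6, 35.1 and 42.2 in erf13-3. It lay at 4.48 and 3.03 times WT and was lower in erf13-3 than in 35S:ERF13:MYC, with a log2 difference of -0.59 (SE 0.12, adjusted p = 0.00241). GDU5, of the glutamine dumper family linked to amino acid export, had means of 0.76 ± 0 FPKM in WT, 2.16 ± 0.985 in 35S:ERF13:MYC and 1.84 ± 0.235 in erf13-3 (SD, n = 3), and its lines overlapped.

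Glutathione S-transferases, enzymes that join glutathione to reactive and toxic compounds, gave 3 genes, all of the phi class. GSTF14 (chromosome 1, 18458526 to 18459969) had 0.69, 0.62 and 0.21 FPKM in the WT libraries, 1.45, 1.33 and 1.38 in 35S:ERF13:MYC and 12.7, 12.4 and 13.9 in erf13-3. In 35S:ERF13:MYC its mean was 2.74 times WT and in erf13-3 25.7 times, the largest ratio in that line. The difference between the lines was 3.20 (SE 0.20, adjusted p = 1.6e-07), the most positive of the 61. GSTF6, known from camalexin synthesis and induced by many stresses, was abundant in all groups. It had 15.5, 19.1 and 21 FPKM in the WT libraries, 57.1, 48.4 and 42.5 in 35S:ERF13:MYC and 37.5, 35.2 and 45.9 in erf13-3, the lines overlapped, and the difference was -0.35 (SE 0.16, adjusted p = 0.0984). Without erf13-3 replicate 3 the adjusted p for GSTF6 was 0.0276, in a range of 0.0276 to 0.296 over the alternatives. GSTF6 has a near-identical neighbour, GSTF7, so its count is uncertain. GSTF11 had means of 1.2 ± 0.369, 2.73 ± 0.673 and 2.47 ± 0.536 FPKM in WT, 35S:ERF13:MYC and erf13-3 (SD, n = 3), and it overlaps another gene.

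A pair of genes belongs to the synthesis of aliphatic glucosinolates, which starts from methionine. BCAT4 encodes the aminotransferase that opens the chain elongation of methionine. It had 7.33, 5.04 and 12.7 FPKM in the WT libraries, 33.6, 28.7 and 22 in 35S:ERF13:MYC and 24.1, 26.6 and 26.3 in erf13-3. WT replicate 3 was the highest WT library, the lines overlapped, and they differed by -0.16 (SE 0.25, adjusted p = 0.652). BCAT4 overlaps AT3G19700 on the other strand. CYP79F2, a cytochrome P450 that converts chain-elongated methionine to its aldoxime, had 5.51, 6.11 and 8.41 FPKM in the WT libraries, 16.4, 15.7 and 13.3 in 35S:ERF13:MYC and 15.5, 14.8 and 12.9 in erf13-3. It differed between the lines by -0.09 (SE 0.15, adjusted p = 0.666). CYP79F2 has a close tandem relative, CYP79F1, which had a mean of 0.137 FPKM in WT. SOT7, annotated as a sulfotransferase, had 0.070, 0.14 and 0.28 FPKM in the WT libraries, 1.69, 1.07 and 1.27 in 35S:ERF13:MYC and 1.35, 1.9 and 1.92 in erf13-3 and overlapping lines.

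The gene lists allow the rest of these pathways to be set beside the members. An aliphatic glucosinolate list held 10 genes, of which 8 were tested. CYP79F2 and BCAT4 are 2 of these and were chosen for their rise, so they are left out of the counts here. Of the other 6, 2 rose in 35S:ERF13:MYC, against a background of 13.8% of all genes, and 3 rose in erf13-3, against 13.6%. None of the 6 fell in either line, where the backgrounds were 17.7% and 13.7%. SOT17 rose in both lines. Their median log2 change was 0.48 in 35S:ERF13:MYC and 0.41 in erf13-3, against 0.02 for all genes in each. These counts rest on few genes and on single libraries: without replicate 1 or 2 of WT or of the line itself, 1 of the 6 rose in 35S:ERF13:MYC and 1 in erf13-3. The comparisons share the WT libraries.

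None of the other lists held a member. UGT73B4 of the detoxification list and BGLU28 of the sulfur deficiency list nonetheless rose in both lines. No gene of the indole, defence or squalene epoxidase lists did. Of 11 tested indole glucosinolate and camalexin genes, 6 rose and 2 fell in 35S:ERF13:MYC, while none rose and 6 fell in erf13-3. The count of 2 that fell was 1 without 35S:ERF13:MYC replicate 1, 35S:ERF13:MYC replicate 2 or WT replicate 2, and with limma on either log2 scale. PR1, PR2, PR5 and PDF1.2A of the defence list had a mean of 0 FPKM in every group and were not tested. Of 10 tested defence genes, 1 rose and 4 fell in 35S:ERF13:MYC, and 5 rose and 1 fell in erf13-3. The count of 4 that fell was 2 without replicate 2 or 3 of 35S:ERF13:MYC or of WT, and with limma on log2(FPKM + 1). Of 21 tested detoxification genes, chiefly tau-class transferases and glucosyltransferases, 4 rose and 12 fell in 35S:ERF13:MYC, and 10 rose and 3 fell in erf13-3. Of 15 sulfur deficiency genes, 4 rose and 1 fell in 35S:ERF13:MYC, and 7 rose and none fell in erf13-3. The count of 4 that rose was 2 without replicate 1 or 2 of 35S:ERF13:MYC or of WT, and the count of 1 that fell was 3 without WT replicate 1. Of 5 tested squalene epoxidase genes, 1 rose and 3 fell in 35S:ERF13:MYC, and none rose and 2 fell in erf13-3, where limma on either log2 scale called 1 as higher. Their median log2 changes in 35S:ERF13:MYC and erf13-3 were 0.50 and -0.68 for the indole list, -0.25 and 0.41 for defence, -0.46 and 0.22 for detoxification, 0.33 and 0.42 for sulfur deficiency, and -0.57 and -0.17 for the squalene epoxidases.

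CYP707A3, which breaks down abscisic acid by hydroxylating it, had 3.87, 3.23 and 4.11 FPKM in the WT libraries, 11.5, 7.68 and 7.6 in 35S:ERF13:MYC and 15.1, 13.5 and 13.3 in erf13-3. The 3 groups did not overlap, and erf13-3 was higher than 35S:ERF13:MYC by 0.61 (SE 0.16, adjusted p = 0.00793). PYL6, a receptor of the same hormone, had 1.71, 0.81 and 1.42 FPKM in the WT libraries, 3.8, 3.84 and 1.77 in 35S:ERF13:MYC and 5.0, 6.09 and 7.0 in erf13-3. The groups did not overlap, although replicate 3 of 35S:ERF13:MYC was only just above WT replicate 1. Between the lines PYL6 differed by 0.92 (SE 0.28, adjusted p = 0.0199), and this was no longer called when replicate 3 of either line was left out, with log2 differences of 0.63 and 0.76. The adjusted p ran from 0.0114 to 0.0737 over the alternatives. FAH1, the ferulate hydroxylase that leads to syringyl lignin and sinapate esters, had 23.5, 22.8 and 35.1 FPKM in the WT libraries, 71.3, 55.1 and 48.2 in 35S:ERF13:MYC and 58.2, 62.9 and 75.5 in erf13-3. Its lines overlapped and differed by 0.15 (SE 0.20, adjusted p = 0.582).

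The most abundant gene of the set was CAF1a, a deadenylase that shortens the poly(A) tails of messenger RNAs and is known to be quickly induced by stress. It had 19.5, 24.3 and 41.3 FPKM in the WT libraries, 90.6, 59.2 and 44.1 in 35S:ERF13:MYC and 78.7, 65.6 and 62.5 in erf13-3. The spread was wide in WT and 35S:ERF13:MYC, the lowest 35S:ERF13:MYC library was close to the highest WT library, and the lines differed by 0.06 (SE 0.28, adjusted p = 0.877). GRP3S, a glycine-rich cell wall protein, had 11.6, 16.9 and 6.96 FPKM in the WT libraries, 41.7, 39.9 and 49.9 in 35S:ERF13:MYC and 56.4, 43.2 and 62.9 in erf13-3, with overlapping lines. AT4G22230, a defensin-like peptide gene, had 19.6, 13.4 and 19.7 FPKM in the WT libraries, 42.6, 41 and 32.2 in 35S:ERF13:MYC and 42.6, 36.1 and 37.3 in erf13-3, also with overlapping lines.

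Other genes known from stress and defence were FBS1, an F-box protein induced by stress, and MC2, a metacaspase known to restrain cell death. FBS1 had 4.22, 4.53 and 6.14 FPKM in the WT libraries, 16.7, 11 and 10.9 in 35S:ERF13:MYC and 18.7, 12.4 and 12.7 in erf13-3. Replicate 1 was the highest library in each line. MC2 had 1.63, 1.04 and 1.5 FPKM in the WT libraries, 4.52, 3.27 and 3.74 in 35S:ERF13:MYC and 4.74, 5.34 and 6.39 in erf13-3, and its difference between the lines of 0.49 (SE 0.19, adjusted p = 0.0559) did not pass. It passed in some alternatives, with log2 differences of 0.64 without 35S:ERF13:MYC replicate 1, 0.61 without erf13-3 replicate 1, 0.49 without WT replicate 2, 0.51 without WT replicate 3, 0.50 with a replicate block and 0.42 with limma on log2(FPKM + 1). Lectin and chitinase family genes also appeared: AT1G53060, a legume lectin gene, had means of 2.22, 8.89 and 5.23 FPKM in WT, 35S:ERF13:MYC and erf13-3. The chitinase family gene AT1G56680 had 2.52, 8.67 and 5.71 FPKM in the same order. Both were lower in erf13-3 than in 35S:ERF13:MYC, with adjusted p-values of 0.00584 and 0.00611.

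ADF9 belongs to the actin depolymerizing factors, and it is known to bundle actin filaments rather than cut them. It had 1.9, 1.33 and 0.95 FPKM in the WT libraries, 2.49, 3.58 and 2.58 in 35S:ERF13:MYC and 9.16, 11 and 9.17 in erf13-3. All erf13-3 libraries lay far above those of 35S:ERF13:MYC, with a difference of 1.73 (SE 0.20, adjusted p = 2.5e-05). EDA32, named for an arrest of the embryo sac in its mutant, had 0.59, 0.47 and 0.30 FPKM in the WT libraries, 1.13, 1.45 and 0.78 in 35S:ERF13:MYC and 2.52, 2.87 and 2.47 in erf13-3 and differed by 1.2 (SE 0.24, adjusted p = 0.00192). AT2G22122, a hypothetical protein gene, had 11.1, 12.3 and 11.8 FPKM in the WT libraries, 30.0, 31 and 29 in 35S:ERF13:MYC and 46.3, 41.2 and 52.5 in erf13-3 and differed by 0.62 (SE 0.12, adjusted p = 0.00111). In all 3 genes the groups were separate and erf13-3 was the highest.

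Genes with no described product or only a family name made up much of the rest. Among hypothetical protein genes, AT3G15518, which overlaps another gene, had 6.13, 7.05 and 6.41 FPKM in the WT libraries, 20.3, 17.5 and 15.6 in 35S:ERF13:MYC and 16.9, 17.4 and 24.7 in erf13-3. Its lines overlapped and differed by 0.12 (SE 0.18, adjusted p = 0.613). AT1G47130 had 1.83, 0.46 and 2.75 FPKM in the WT libraries, 15.6, 13 and 7.8 in 35S:ERF13:MYC and 6.47, 6.43 and 5.55 in erf13-3. Its 35S:ERF13:MYC libraries were widely spread but lay above those of erf13-3, and the difference (adjusted p = 0.0369) was no longer called in 8 of 15 alternatives, where the adjusted p reached 0.164. Those 8 include leaving out 35S:ERF13:MYC replicate 1, with a log2 difference of -0.77, or replicate 2, with -0.95, and leaving out erf13-3 replicate 1, with -1.02, replicate 2, with -1.02, or replicate 3, with -0.96. AT4G31441, too low in counts to be tested, had 2.75, 1.83 and 1.84 FPKM in the WT libraries, 4.6, 4.64 and 4.6 in 35S:ERF13:MYC and 6.49, 4.61 and 10.2 in erf13-3.

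AT4G20320, a gene of the CTP synthase family, which makes a building block of RNA and membrane lipids, had 13.8, 14.1 and 13.1 FPKM in the WT libraries, 31.8, 31.9 and 32.7 in 35S:ERF13:MYC and 31.3, 35 and 35.1 in erf13-3. It had some of the tightest libraries of the set, and the lines overlapped at means of 2.36 and 2.48 times WT. AT2G39400, an alpha/beta-hydrolase gene, had 3.05, 4.61 and 2.89 FPKM in the WT libraries, 21.9, 22.9 and 25.5 in 35S:ERF13:MYC and 16.4, 14.3 and 15.5 in erf13-3, with separate groups and a difference of -0.63 (SE 0.14, adjusted p = 0.00289). AT1G27020, described only as a plant protein, had 4.56, 4.67 and 5.0 FPKM in the WT libraries, 22.8, 23.2 and 19.1 in 35S:ERF13:MYC and 14.6, 19.9 and 19.9 in erf13-3, and its lines overlapped. AT4G28085, a transmembrane protein gene, had 9.54, 12.5 and 9.56 FPKM in the WT libraries, 37.5, 31.7 and 32.4 in 35S:ERF13:MYC and 24.2, 22.2 and 25.5 in erf13-3 and was lower in erf13-3, with a difference of -0.53 (SE 0.14, adjusted p = 0.00883).

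Some members lie near each other. AT5G28610 and AT5G28630, whose promoters are shown above, lie 25039 bases apart on chromosome 5 with no listed gene between them. AT5G28610 had 1.17, 1.13 and 1.56 FPKM in the WT libraries, 12.6, 12.9 and 10.7 in 35S:ERF13:MYC and 4.54, 3.53 and 2.33 in erf13-3. AT5G28630, a glycine-rich protein gene, had 3.2, 2.7 and 3.02 FPKM in the WT libraries, 23, 25.5 and 23.4 in 35S:ERF13:MYC and 12.2, 12.4 and 12.4 in erf13-3. Both formed 3 separate groups in the same order, with differences of -1.83 (SE 0.20, adjusted p = 1.9e-05) and -0.98 (SE 0.11, adjusted p = 1.7e-05). Their expected counts had fractions that complement each other, such as 11.26 and 29.74 in WT replicate 1. Reads that match both genes may therefore have been split between them, and their shared order is not that of 2 independent genes. CYP707A3 and DUR3, 19920 bases apart with 3 listed genes between them, stood in opposite order between the lines.

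**Figure D4:**
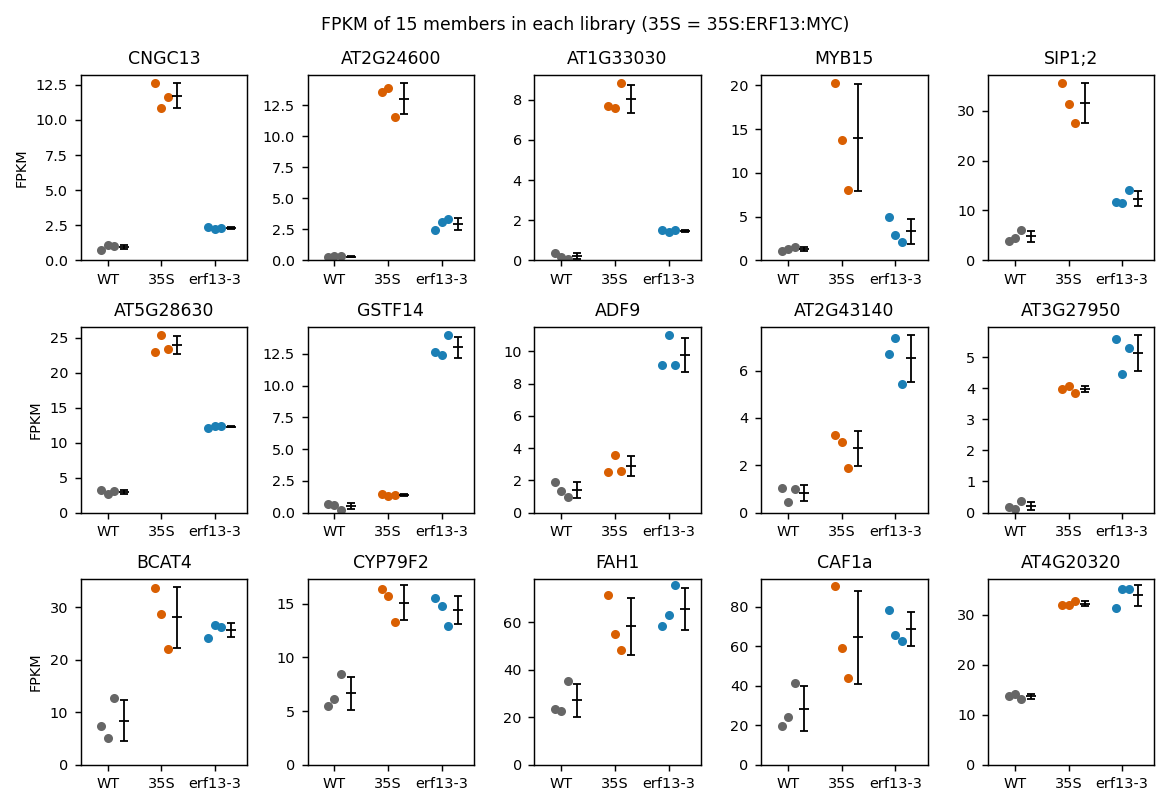
FPKM in each of the 9 libraries for 15 genes of the set, with 1 point per library coloured by genotype and bars of the mean and SD of 3 libraries. CNGC13 and AT2G24600 show 3 separate groups with erf13-3 in the middle, and GSTF14 shows erf13-3 far above the other groups.

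Counts sufficed to compare the lines for 61 of the 66 genes; AT2G11891, AT2G20835, AT2G27535, AT3G44405 and AT4G31441 did not pass the filter on low counts. The level differed between the lines for 27 of the 61 (44.3%), where 38.7% of all tested genes did. Of the 61, 20 were lower in erf13-3 than in 35S:ERF13:MYC (32.8%), against 17.6% of all tested genes, and 7 were higher (11.5%), against 21.1%. At least a 2-fold difference was seen for 10 of the lower and 4 of the higher genes. The share of all tested genes with such a difference was not computed, so these counts only describe the members. AT5G35940, a mannose-binding lectin gene, was called although the libraries of the lines overlapped. Of the 27 calls, 23 held in every alternative fit. The median log2 difference of the 61 genes was -0.13, against -0.02 for all genes.

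For the other 34 genes the difference did not pass, and for 30 of them the estimate lay within 0.5 on the log2 scale. This does not show that the lines were alike: the SE of these genes ran up to 0.32 for GDU5. At an unadjusted p under 0.05, 32 of the 61 genes differed, and the share of all tested genes that did so was not computed. The W box stood in 13 of the 20 genes that were lower in erf13-3, in 3 of the 7 that were higher and in 17 of the 34 that were not called.

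**Figure D5:**
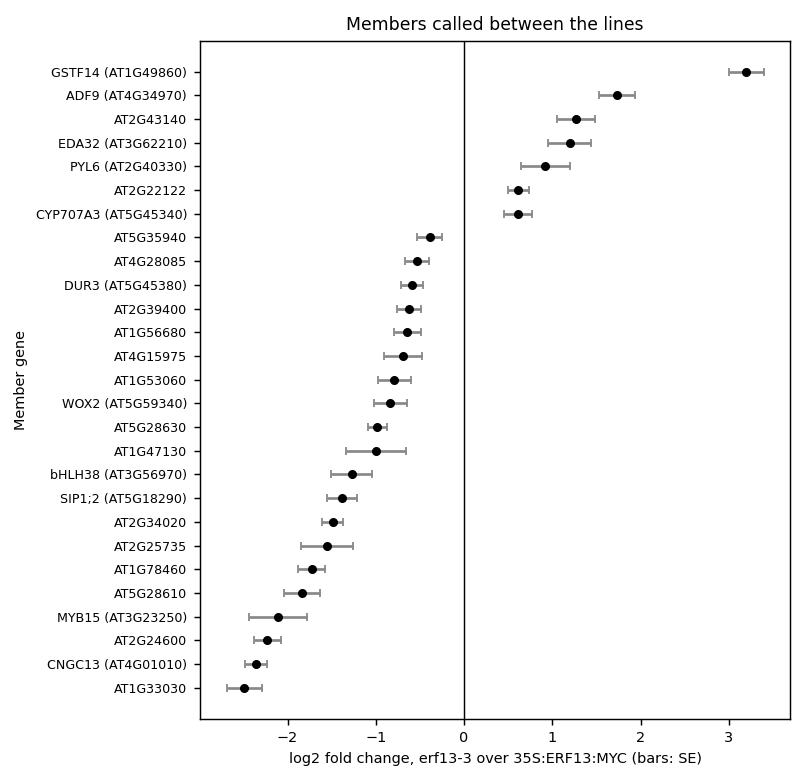
Log2 fold change of erf13-3 against 35S:ERF13:MYC for the 27 genes that differed between the lines, ordered by size, with bars of 1 SE to each side. Values run from -2.49 for AT1G33030 to 3.20 for GSTF14, and 20 genes lie below 0 and 7 above it.

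Within a genotype the libraries were not alike. Replicate 1 of 35S:ERF13:MYC was the highest library of its group for 32 of the 66 genes (48.5%), against 34.4% of the genes with a mean of at least 1 FPKM in that line. MYB15, CML38, CAF1a, FBS1, AT4G29780, AT1G07135 and CYP707A3 were among them. All of these named genes were also highest in replicate 1 of erf13-3. Across the set, replicate 1 of erf13-3 was the highest of its group for 22 of the 66 genes (33.3%). The share was 37.0% of the genes with a mean of at least 1 FPKM in erf13-3. AT4G29780, a nuclease gene, had 6.67, 6.47 and 8.78 FPKM in the WT libraries, 21.4, 16.3 and 9.78 in 35S:ERF13:MYC and 30.3, 23.5 and 20.6 in erf13-3. AT1G07135, a glycine-rich protein gene, had 2.54, 4.91 and 6.47 FPKM in the WT libraries, 26.6, 22.7 and 12.7 in 35S:ERF13:MYC and 15.5, 12 and 10.3 in erf13-3. In both, the 3 values of 35S:ERF13:MYC spanned more than those of WT, and the lines overlapped. Neither difference between the lines passed the test. For AT4G29780 the log2 difference was 0.61 to 0.91 in the alternatives where it passed, the replicate block giving 0.63. Without replicate 1 of 35S:ERF13:MYC 65 genes met the criteria, 58 of them among the 66.

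Short gene structures were frequent in the set. All 66 genes are protein coding, and 22 (33.3%) have a single exon in the RefSeq annotation, against 16.8% of 23944 listed protein-coding genes. At most 2 exons were found in 48.5%, against 31.4%. The median number of exons was 3 in the set and 4 overall. The genes were spread over all chromosomes, with 16 on chromosome 1, 12 on chromosome 2, 13 each on chromosomes 3 and 4, and 12 on chromosome 5. Another annotated gene overlaps 10 of the 66, and since it is not stated whether the authors counted by strand, reads of overlapping partners cannot be told apart for them.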

How the data were processed

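For each of 9 root libraries the authors deposited a gene table of expected counts (estimates that need not be whole) and FPKM, per the file headers. Genes absent from a table were taken as 0. The authors' deposited tables of each line against WT hold mean FPKM, a log2 ratio and a score named Probability, and were used only to see which genes they list. The aligner, counter, build and strandedness: not given in the sources used here. Of 2949 gene coordinates in the deposited tables, 70.6% were identical to the RefSeq TAIR10.1 gene and 100% lay within it, so TAIR10.1 supplied positions and promoters.

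The deposited expected counts, rounded to whole numbers, were fitted with edgeR 4.0.16 in R 4.3.3 (quasi-likelihood, TMM factors 0.895 to 1.06, filterByExpr minimum count 10, 6 residual degrees of freedom) over all 9 libraries with 1 mean for each genotype and without covariates. That left 19714 of 24140 genes, with a biological coefficient of variation of 0.104. A gene was called at an adjusted p under 0.05. SE was derived from the log2 fold change and the F statistic. Alternatives used DESeq2 1.42.0, limma 3.58.1 on log2(FPKM + 0.1) and log2(FPKM + 1), other filters, a replicate block and leaving out each library. Over all tested genes, same-numbered libraries of WT and erf13-3 deviated together (correlations of 0.18, 0.22 and 0.44). This comes from the data and not from the labels. Same-numbered libraries of the lines did not (-0.06, 0.15 and -0.13), nor did those of WT and 35S:ERF13:MYC (-0.26, 0.09 and -0.20).

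The members and the 6 gene lists (82 genes) were chosen with earlier results of these data known. The naming rule took, among the members, the 8 largest ratios to WT in each line, the 6 highest means, the 5 smallest p-values in each direction between the lines, up to 4 of each role class, list members, neighbours, and genes next to the limit. The other genes named, CNGC10, CML38, SIP1;2 and PYL6 among them, were chosen after their values were seen. Library totals of 12147128 to 12324144 counts limit the precision of the lowest genes.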

Additional observations from a re-analysis of the deposited data

How the results depend on the processing

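The number of genes that met the criteria depended on the limits. With no minimum FPKM it was 114, and at 1.5 times WT it was 311. It fell to 49 with line means of at least 2 FPKM and to 47 with TMM-scaled count rates. Leaving out a library gave 65 to 102, the highest without WT replicate 3. Between the lines, 27 genes were called, and leaving out a library gave 24 to 30, with 6 to 10 higher and 17 to 21 lower in erf13-3. With a replicate block 29 were called, 9 higher and 20 lower. Over all tested genes, same-numbered libraries of the lines did not deviate together, so the numbers were not taken to pair them. Some genes of the set, MYB15 and AT4G29780 among them, were nonetheless highest in replicate 1 of both lines. Same-numbered libraries of WT and erf13-3 did deviate together. The replicate block moved no count of list genes in erf13-3 against WT by over 1.5 times, and the 1 list gene whose call it changed there was OPR2, with a log2 change of 0.22 (edgeR adjusted p = 0.0490, against 0.0877 without the block). The alternatives with DESeq2, DESeq2 size factors, limma and no filter on low counts gave 25 to 29. Of the 27 calls, 23 held in every alternative, the exceptions being AT1G47130, PYL6, AT4G15975 and AT5G35940. Of the 34 genes not called, 29 were called in none, the exceptions being GSTF6, AT1G07135, CML38, MC2 and AT4G29780. No direction between the lines reversed where the main fit or the alternative called the gene. Changes of sign in genes called in neither fit were not counted. The median log2 difference ran from -0.22 to -0.06 when a library was left out, the smallest in size without 35S:ERF13:MYC replicate 1. The number of list calls against WT, 81 in all, was 66 to 85 when a library was left out. Depth limits the 5 genes that were not tested.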
